A study of Mus musculus with 21 samples.

Results

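Itgb3 and 6 other integrin subunit genes, Itgav, Itga2b, Itga6, Itgal, Itgb2 and Itgae, were followed in small intestinal IgA+ plasma cells (PCs) of mice across 2 genotypes and 2 times of day. The genes were taken by symbol from the deposited gene table and make up 7 of the 26 integrin subunits of that table, which lists 53801 genes. Itgb3 was chosen because earlier results of these same data showed it lower at ZT12 than at ZT0, and the others were added as its family. Its change with time of day, in either genotype, is therefore given as a description with no test. All 7 passed the count filter, a total of at least 10 reads over all libraries, as did 20256 genes in all.

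RNA was sequenced from live CD138+ IgA+ cells sorted from the small intestine of 21 mice on a C57BL/6 background, each mouse giving 1 library. Every animal carried the floxed Arntl allele on both chromosomes, so the controls carry it too. Littermate controls without Cre (Mb1Cre-/- x Arntlfl/fl) were sampled at ZT0 (n = 6) and ZT12 (n = 6), and mice with 1 copy of Mb1Cre (Mb1Cre+/- x Arntlfl/fl), called knockout here, at ZT0 (n = 4) and ZT12 (n = 5). ZT is zeitgeber time in hours after lights on, in a light cycle with equal light and dark. Cre is expressed from the Mb1 (Cd79a) locus, which acts in the whole B lineage from early development and not in PCs alone, and Arntl encodes BMAL1, a core transcription factor of the circadian clock. Ages were not given. The genotype was read from the sample titles, because for 8 of the 9 knockout samples the field for genotype gives that of the controls.

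Integrins are membrane receptors made of 1 alpha and 1 beta subunit, and a receptor reaches the cell surface only as such a pair. They bind matrix proteins or ligands on other cells and signal in both directions across the membrane. Itgb3 encodes beta3, which pairs with alphav (Itgav) to form the vitronectin receptor and with alphaIIb (Itga2b) to form the fibrinogen receptor of platelets. Itgal and Itgb2 encode the 2 subunits of LFA-1, the ICAM receptor of leukocytes. Itgae encodes alphaE (CD103), which pairs with beta7 and binds E-cadherin, and Itga6 encodes a laminin-binding subunit that pairs with beta1 or beta4. In the gut, PCs are known for alpha4beta7 (Itga4 and Itgb7), which binds MAdCAM-1 on mucosal vessels.

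The cytoplasmic tails of the beta subunits hold the sites at which talin and kindlin bind and switch the receptor on. The coding bases of the last 48 codons of Itgb3, of its fellow member Itgb2 and of Itgb7, the beta subunit with the highest level in these cells, are shown to let the reader compare the tails. They were read 5′ to 3′ from the GENCODE M21 transcripts on GRCm38, with the stop codon last. Capitals mark the codons for asparagine, any 2 residues and then tyrosine or phenylalanine, the pattern of the talin and kindlin sites.
Itgb3: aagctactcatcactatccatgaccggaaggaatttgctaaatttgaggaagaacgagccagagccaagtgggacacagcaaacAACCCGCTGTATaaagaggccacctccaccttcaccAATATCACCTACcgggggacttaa
Itgb2: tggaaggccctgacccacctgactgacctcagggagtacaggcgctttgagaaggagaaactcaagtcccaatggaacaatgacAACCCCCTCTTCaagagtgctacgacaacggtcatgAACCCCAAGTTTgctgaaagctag
Itgb7: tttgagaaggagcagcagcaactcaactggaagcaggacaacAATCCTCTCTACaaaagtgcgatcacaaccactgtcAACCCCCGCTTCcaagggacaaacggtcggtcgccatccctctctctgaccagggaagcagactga
Each tail held 2 such motifs, whose starts lay 12 codons apart in all 3 genes. The first motif began 19 codons before the stop codon in Itgb3 and Itgb2, and 33 codons before it in Itgb7.

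Because subunits of a family resemble each other, the longest run of identical bases was sought between the coding transcript of each of the 7 genes and those of all other subunits. It measured 17 to 28 bases, against reads of 150 bases. The 28-base run of Itgb3 was shared with Itga2 and lay outside the coding sequence. It was a repeat of the bases TG, so for Itgb3 the search gave no measure of family likeness. Shorter runs within the coding sequence of Itgb3 were not sought. Of the longest runs of the 7 genes, the longest that lay within coding sequence was 26 bases shared by Itgb2 and Itgb7. It is shown in capitals with its neighbours in lower case.
Itgb2: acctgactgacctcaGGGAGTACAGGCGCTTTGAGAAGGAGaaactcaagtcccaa
Itgb7: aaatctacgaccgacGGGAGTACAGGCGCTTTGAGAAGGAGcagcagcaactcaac
The bases on both sides of the run differ between the genes, so that a full-length read reaching beyond it can be assigned to 1 of them.

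The libraries held 14471018 to 22785835 counted reads. Immunoglobulin genes took 51.5% to 63.6% of them, and 4 libraries lay above 58%, namely control ZT12 replicates 2, 4 and 5 and knockout ZT0 replicate 3. Levels are given as CPM, reads per 1000000 of a library size scaled by the trimmed mean of M values (TMM). Arntl ranged from 6.83 to 8.36 CPM in control ZT0 and from 4.00 to 5.56 in control ZT12. In knockout mice Arntl ranged from 4.08 to 6.47 CPM at ZT0 and from 3.11 to 4.93 at ZT12. A gene-level count includes exons outside a deleted part. Cd79a, whose locus carries the Cre, was at least 386 CPM in every control and at most 276 CPM in every knockout library. All 9 plasma cell markers were detected, and their summed level lay between 282028 and 593828 CPM. Igha and Jchain, with means of 304433 and 48827 CPM, made up most of that sum. The others had means from 88.5 CPM (Tnfrsf17) to 2197 CPM (Xbp1). Summed markers of other cells reached 49.8 CPM for 8 T cell genes, 99.2 for 9 myeloid genes and 29.4 for 7 genes of other B cells. They reached 45.3 for 6 endothelial genes, 2.81 for 6 stromal genes and 2.69 for 8 mast cell genes. Of the mast cell genes, Fcer1a and Cma1 were at 0 in every library. Epithelial markers (7 genes) ranged from 52.4 to 162 CPM in control ZT0, from 69.8 to 644 in control ZT12, from 66.8 to 81.4 in knockout ZT0 and from 62.3 to 397 in knockout ZT12. In sorted bulk samples, a smaller share of cells expressing a gene and less of its RNA per cell cannot be told apart.

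The order of the 7 genes was read from CPM divided by gene length in kilobases, the only scale on which genes can be compared with each other. Itgal stood at 40.4 ± 5.23 CPM per kb (SD over 21 libraries) and Itgb2 at 39.9 ± 4.81, which do not differ beyond their spread. Itgb3 followed at 6.67 ± 1.60, well below both. Itga2b at 0.946 ± 0.239 and Itgav at 0.834 ± 0.102 overlapped, as did Itgae at 0.554 ± 0.221 and Itga6 at 0.393 ± 0.156. Among the 23 integrin subunits that passed the filter, Itgb7 had the highest level (92.3 ± 14.5 CPM per kb), followed by Itgal, Itgb2, Itga4 (24.4 ± 6.42) and Itgb3, which ranked 5 of 23 by the mean over all groups. Itgb3 was not separated from Itgb1 (6.24 ± 0.758) or Itgb5 (5.78 ± 0.622), which came next, and at ZT12 it ranked 7 in both genotypes. Its level there was 5.33 ± 0.773 CPM per kb in control mice, against 5.86 ± 1.25 for Itgb1 and 5.83 ± 0.662 for Itgb5, and 5.42 ± 0.838 in knockout mice, against 6.47 ± 0.565 for Itgb1 and 5.42 ± 0.474 for Itgb5. With the longest annotated transcript as the length, Itgb3 stood at 6.81 CPM per kb and again ranked 5 by the mean over all groups. On that length Itgal stood at 50.8 CPM per kb against 41.0 for Itgb2, Itga2b at 1.5 and Itgav at 1.27, and the order of the lowest pair turned, with Itga6 at 0.823 above Itgae at 0.660.

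**Figure D1:**
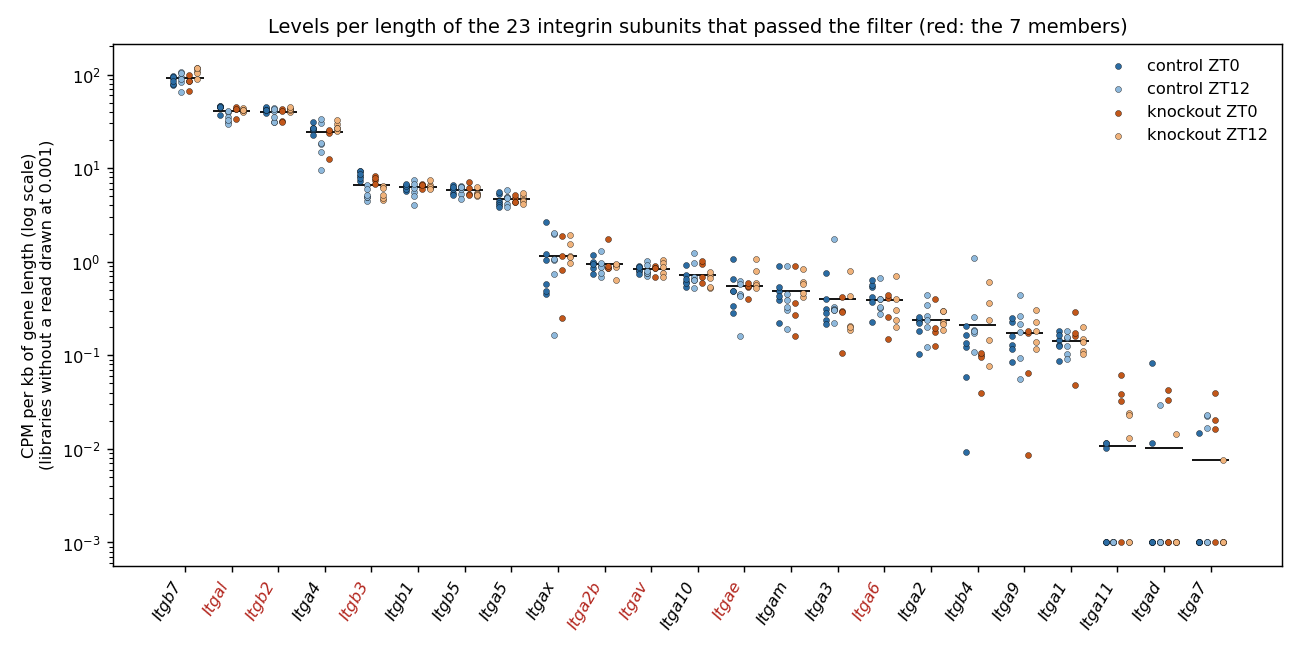
Level per gene length (CPM per kb, log axis) of the 23 integrin subunits that passed the filter, ordered by their mean, with 1 point per mouse coloured by group and a line at the mean over 21 libraries. Itgb7, Itgal, Itgb2 and Itga4 lie above all other subunits, and Itgb3 stands with Itgb1, Itgb5 and Itga5, above both of its alpha partners.

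Itgb3 (ENSMUSG00000020689) spans chr11:104608000-104670476 on the plus strand of GRCm38, with 15 exons in its coding transcript and no other annotated gene within it. It was counted with 398 to 982 reads per library. In control mice the 6 libraries at ZT0 gave 55.3, 43.4, 54.5, 48.9, 46.6 and 51.1 CPM, after scaling by the trimmed mean of M values (TMM), and the 6 at ZT12 gave 38.8, 26.5, 29.3, 35.1, 28.9 and 30.3 CPM. Every ZT12 value lay below every ZT0 value. In knockout mice Itgb3 measured 49.1, 43.9, 46.0 and 39.7 CPM at ZT0, with 37.8, 36.6, 26.8, 28.4 and 30.2 CPM recorded at ZT12. The times were again separate, with ZT12 lower.

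The group means of Itgb3 fell in the order control ZT0 (50.0 ± 4.60 CPM, SD, n = 6), knockout ZT0 (44.7 ± 3.95, n = 4), knockout ZT12 (32.0 ± 4.94, n = 5) and control ZT12 (31.5 ± 4.56, n = 6). The 2 genotypes overlapped at each time. The change from ZT0 to ZT12 was a log2 fold change of -0.67 (SE 0.10) in control mice, a level 0.63 times that of ZT0, and -0.48 (SE 0.12) in knockout mice, 0.716 times. The knockout change minus the control change was 0.18 (SE 0.16) on the log2 scale, a smaller fall in knockout mice, with a 95% interval of -0.14 to 0.51. These values belong to the pattern for which Itgb3 was chosen and are a description of it.

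Averaged over both times, knockout and control mice differed in Itgb3 by a log2 fold change of -0.07 (SE 0.08, 95% interval -0.23 to 0.09, edgeR adjusted p = 1). The control change was -0.58 (SE 0.12) with the libraries' immunoglobulin share as a covariate and -0.60 (SE 0.12) without the 4 libraries above 58%, against -0.67 in all libraries without that covariate.

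**Figure D2:**
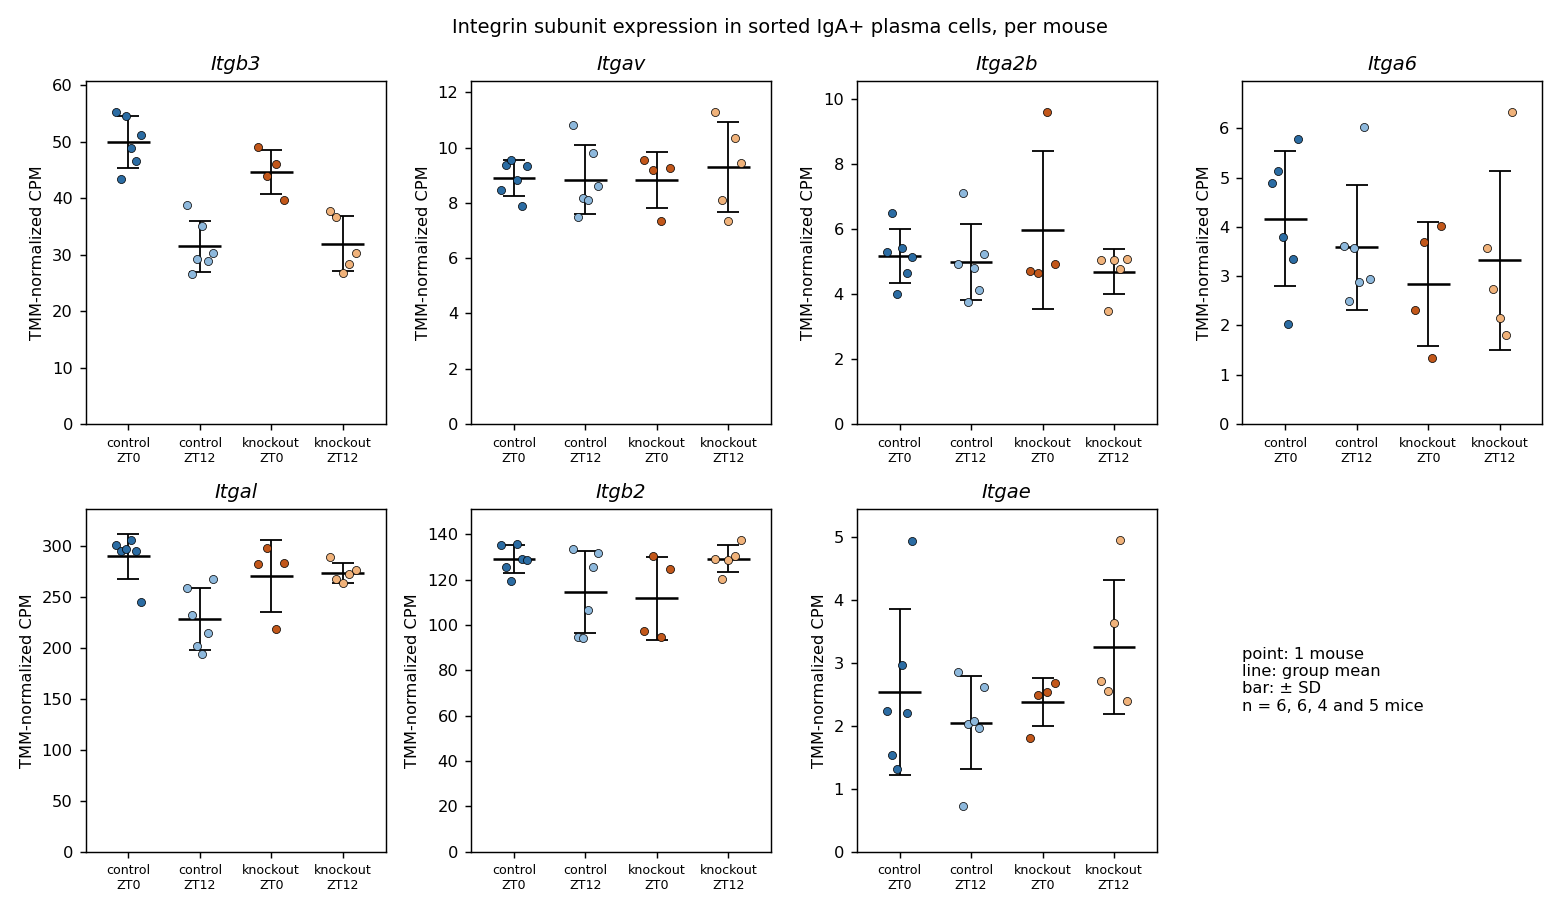
TMM-normalized CPM of the 7 integrin genes in each mouse (points), with the group mean (line) and SD (bar), for control ZT0 (n = 6), control ZT12 (n = 6), knockout ZT0 (n = 4) and knockout ZT12 (n = 5). In the Itgb3 panel ZT12 lies below ZT0 in both genotypes, and in the other 6 panels the times overlap in both genotypes.

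Of the 23 subunits, only Itgb3 had a time separation in which the ZT12 libraries all lay below the ZT0 libraries, and it had it in both genotypes. Over all genes tested, 0.859% showed this in control mice and 1.41% in knockout mice, and Itgb3 was chosen on this contrast. The counts that follow leave Itgb3 out for that reason. With an adjusted p under 0.05 by edgeR, 0 of the other 6 integrin genes were called for time of day in control mice (1.73% of all genes), for time in knockout mice (0% of all genes), for the difference between the time changes of the genotypes (0% of all genes) or for genotype (0.0346% of all genes). DESeq2 called 1 of the 6, Itgal, for time in control mice, where it called 8.5% of all genes. It called 0 of the 6 for time in knockout mice (0.319% of all genes), for the difference between the time changes (0.0279%) and for genotype (0.0687%). At an unadjusted p under 0.05 in edgeR, the counts were 1 of 6 for time in control mice (18.1% of all genes), 0 for time in knockout mice (8.01%), 2 for the difference between the time changes (10.8%) and 0 for genotype (4.19%). The changes of the 6 in control mice were below 0, with a median log2 fold change of -0.19, against 49.3% of all genes below 0 and a median of 0.01. For 4 of the 6, Itgav, Itga2b, Itga6 and Itgae, that change turned positive under at least 1 other setting. In knockout mice 1 of the 6 was below 0, with a median of 0.14, against 48.9% of all genes below 0 and a median of 0.0055. Without the 4 libraries above 58% immunoglobulin reads, 4 of the 6 were below 0 in knockout mice, with a median of -0.0098.

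Itgav (ENSMUSG00000027087, chr2:83724397-83806916, plus strand, 30 exons) encodes alphav, an alpha partner of beta3, and also pairs with beta1, beta5, beta6 and beta8. At ZT0 the control libraries held 8.48, 9.36, 9.56, 8.83, 7.88 and 9.32 CPM, and at ZT12 10.8, 7.48, 8.18, 8.09, 9.81 and 8.63 CPM. The knockout libraries held 9.56, 9.18, 7.34 and 9.25 CPM at ZT0, and at ZT12 11.3, 8.09, 7.33, 10.4 and 9.43 CPM. The groups overlapped throughout. The time of day change was -0.01 (SE 0.13, 95% interval -0.27 to 0.25, edgeR adjusted p = 0.981) on the log2 scale in control mice and 0.07 (SE 0.15, -0.23 to 0.38, adjusted p = 0.933) in knockout mice. The noncoding gene Gm13684 overlaps its exons on the opposite strand, with 11 reads over all libraries against 3154 for Itgav.

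Itga2b (ENSMUSG00000034664, chr11:102453297-102470122, minus strand, 30 exons) encodes alphaIIb (CD41), the other partner of beta3. Control mice had 5.30, 6.51, 4.00, 5.44, 4.65 and 5.16 CPM at ZT0, and at ZT12 4.92, 7.11, 3.75, 4.80, 4.14 and 5.25 CPM. Knockout mice had 4.73, 4.66, 9.61 and 4.92 CPM at ZT0, and at ZT12 5.05, 3.47, 5.04, 4.76 and 5.10 CPM. The value of 9.61 stood apart from all others and came from knockout ZT0 replicate 3, a library above 58% immunoglobulin reads. The change in knockout mice was -0.35 (SE 0.23, edgeR adjusted p = 0.697) with that library and -0.03 (SE 0.21) without it. In control mice it was -0.05 (SE 0.19, adjusted p = 0.924).

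Since Itga2b and Itgb3 are genes of platelets and megakaryocytes, the markers of those cells were read beside them. The 8 markers summed to 0.75 to 3.22 CPM per library, 5 of 8 passed the filter, and Treml1 was at 0 in every library. Their summed range was 1.18 to 2.10 CPM in control ZT0, 0.75 to 2.83 in control ZT12, 1.48 to 2.29 in knockout ZT0 and 0.901 to 3.22 in knockout ZT12. The sums are not divided by gene length, so they cannot be set against the level of Itga2b. The source of the Itga2b reads was not tested. The largest of the 3 leading markers, Gp1ba, a subunit of the von Willebrand factor receptor, averaged 0.497 CPM, Gp1bb averaged 0.446 CPM, and the chemokine gene Pf4 0.396 CPM, and none was called.

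The ratio of Itgb3 to each partner was taken within a library, where scaling between libraries cancels. Itgb3 per kb was 11.9, 8.43, 10.4, 10.1, 10.8 and 9.99 times Itgav per kb in control ZT0 and 6.53, 6.45, 6.52, 7.90, 5.37 and 6.40 times in control ZT12. In knockout ZT0 the ratio was 9.34, 8.70, 11.4 and 7.81, and in knockout ZT12 it was 6.10, 8.24, 6.66, 4.99 and 5.84. The times did not overlap in control mice and overlapped in knockout mice, where the highest ZT12 ratio exceeded the lowest ZT0 ratio. Mean ratios were 10.3 ± 1.12 (SD, n = 6), 6.53 ± 0.805 (n = 6), 9.32 ± 1.54 (n = 4) and 6.37 ± 1.21 (n = 5). Against Itga2b the mean ratios in the same order of groups were 9.19 ± 2.09, 6.08 ± 1.47, 7.55 ± 2.26 and 6.52 ± 1.97, and the times overlapped in both genotypes. The size of these ratios depends on the length used. With the longest transcript they were 6.87, 4.37, 6.24 and 4.26 for Itgav and 5.91, 3.91, 4.85 and 4.19 for Itga2b. Because the numerator was chosen for its change, these ratios carry no test.

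**Figure D3:**
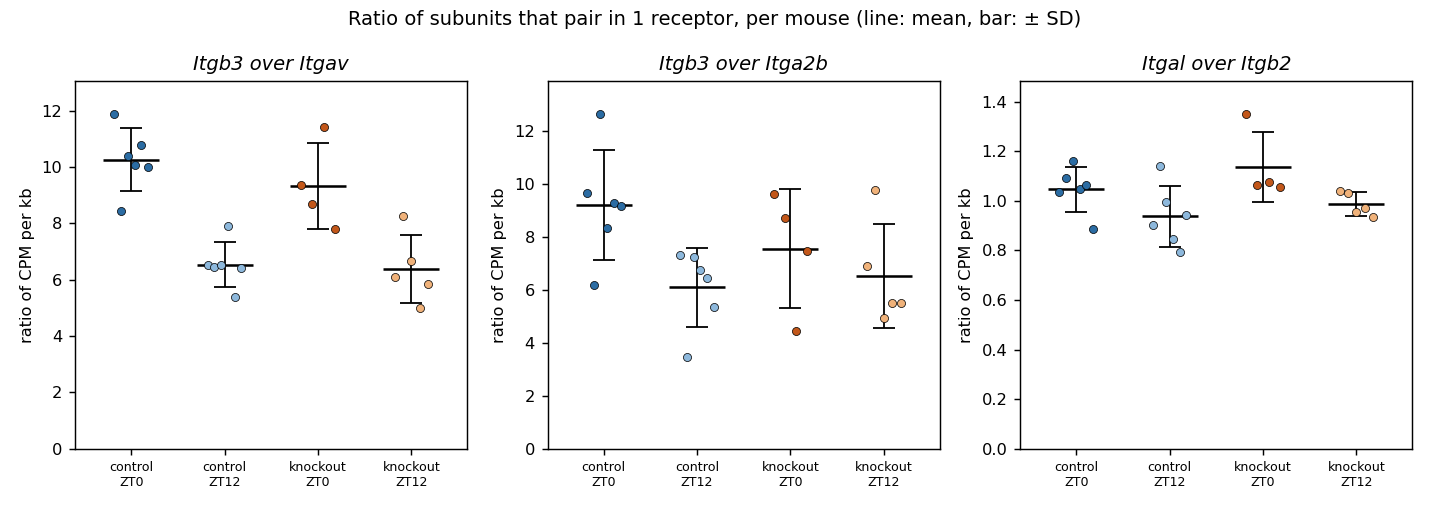
Ratio of the level per kb of 2 subunits that form 1 receptor, in each mouse (points), with the group mean (line) and SD (bar): Itgb3 over Itgav, Itgb3 over Itga2b and Itgal over Itgb2. The ratio of Itgb3 to Itgav falls from a mean of 10.3 to 6.53 in control mice and from 9.32 to 6.37 in knockout mice. That of Itgal to Itgb2 lies between 0.793 and 1.35 in all 21 libraries. Its mean goes from 1.05 to 0.937 in control mice and from 1.14 to 0.987 in knockout mice.

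Itgal (ENSMUSG00000030830, chr7:127296260-127335138, plus strand, 30 exons), the alpha subunit of LFA-1, had the most reads of the 7, at 2422 to 5806 per library. The control libraries held 301, 295, 297, 306, 296 and 245 CPM at ZT0, and at ZT12 259, 232, 202, 194, 215 and 268 CPM. Of the ZT0 values only the 245 CPM of replicate 6 lay within the ZT12 range. Knockout libraries held 283, 298, 219 and 284 CPM at ZT0, and at ZT12 289, 268, 264, 273 and 277 CPM, which overlapped. The change was -0.34 (SE 0.10, 95% interval -0.54 to -0.15) in control mice and 0.02 (SE 0.11, -0.21 to 0.25, edgeR adjusted p = 0.988) in knockout mice.

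In control mice Itgal did not pass the threshold in edgeR (adjusted p = 0.0634). It passed with DESeq2 (adjusted p = 0.00814), with library sizes in place of TMM (0.0330), a scaling that shifted the median of all genes by -0.20, with edgeR's own expression filter (0.0460), and after removal of control ZT0 replicate 6, control ZT12 replicate 1, control ZT12 replicate 6 or knockout ZT0 replicate 3 (0.0245 to 0.0491). The change fell in size to -0.25 (SE 0.09) without the 4 libraries above 58% immunoglobulin reads and to -0.24 (SE 0.11) with that share as a covariate. The knockout change minus the control change was 0.36 (SE 0.15, edgeR adjusted p = 0.442).

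Itgb2 (ENSMUSG00000000290, chr10:77530252-77565708, plus strand, 16 exons) encodes beta2 (CD18), which also pairs with the alpha subunits of Mac-1 and p150,95. Control mice gave 135, 126, 119, 136, 129 and 129 CPM at ZT0, and at ZT12 133, 94.8, 94.4, 107, 126 and 132 CPM. Knockout mice gave 97.5, 130, 94.5 and 125 CPM at ZT0, and at ZT12 129, 121, 129, 130 and 138 CPM. The wider spread lay at ZT12 in control mice and at ZT0 in knockout mice, with SDs of 18.1 and 18.4 CPM against 6.19 and 6.06 in the other 2 groups. The change was -0.17 (SE 0.10, edgeR adjusted p = 0.377) in control mice, 0.21 (SE 0.12, adjusted p = 0.659) in knockout mice, and their difference 0.38 (SE 0.16, adjusted p = 0.442). The ratio of Itgal to Itgb2 per kb was 1.02 ± 0.120 over the 21 libraries (0.793 to 1.35). Its mean was 1.05 at ZT0 and 0.937 at ZT12 in control mice, where the times overlapped. In knockout mice the means were 1.14 and 0.987, and the lowest ZT0 ratio (1.06) lay above the highest ZT12 ratio (1.04). The highest knockout ZT0 ratio, 1.35, came from replicate 1. The change of this ratio with time was not tested, and how often other ratios separate in this way was not counted. With the longest transcript as the length the ratio over the 21 libraries was 1.25 ± 0.147.

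Itgae (ENSMUSG00000005947, chr11:73090583-73147446, plus strand, 31 exons) was low, with 12 to 95 reads per library. Control mice had 2.24, 1.53, 1.31, 2.97, 2.21 and 4.95 CPM at ZT0, and at ZT12 2.86, 0.729, 2.03, 2.08, 1.96 and 2.63 CPM. Knockout mice had 1.81, 2.49, 2.53 and 2.68 CPM at ZT0, and at ZT12 2.71, 2.56, 3.63, 4.96 and 2.40 CPM. The groups overlapped. The change was -0.31 (SE 0.31, edgeR adjusted p = 0.643) in control mice and 0.45 (SE 0.36, adjusted p = 0.771) in knockout mice, and without control ZT0 replicate 6 the former was 0.0033 (SE 0.30). Relative to its partner Itgb7, Itgae per kb stood at a ratio of 0.00609 ± 0.00245 over the 21 libraries. The kinase gene Haspin lies on the opposite strand in an intron of Itgae, with 1262 reads over all libraries against 893 for Itgae, and whether counting used the strand was not given.

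Itga6 (ENSMUSG00000027111, chr2:71745616-71858416, plus strand, 26 exons) had 20 to 111 reads per library. Control libraries held 4.89, 5.13, 3.80, 2.04, 3.34 and 5.78 CPM at ZT0, and at ZT12 3.62, 2.49, 3.57, 2.88, 6.03 and 2.94 CPM. Knockout libraries held 2.31, 3.70, 1.33 and 4.03 CPM at ZT0, and at ZT12 3.58, 2.74, 2.15, 1.80 and 6.33 CPM. The highest value of each ZT12 group, 6.03 and 6.33 CPM, came from the library with the highest summed epithelial markers of that group, control ZT12 replicate 5 (644 CPM) and knockout ZT12 replicate 5 (397 CPM). The part of epithelial RNA in these values was not tested. The change was -0.22 (SE 0.31, edgeR adjusted p = 0.758) in control mice and 0.22 (SE 0.36, adjusted p = 0.91) in knockout mice; without those libraries it was -0.42 (SE 0.31) and -0.16 (SE 0.35).

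Of the 19 other subunits, 16 passed the filter and 13 had a mean of at least 1 CPM. None of the 16 was called by edgeR in any of the 4 comparisons, and DESeq2 called none for time in either genotype. At an unadjusted p under 0.05 edgeR listed 1 of 16 for time in control mice (18.1% of all genes), 3 for time in knockout mice (8.01%), 1 for the difference between the time changes (10.8%) and 1 for genotype (4.19%). The median change of the 16 was 0.06 in control mice and 0.07 in knockout mice on the log2 scale.

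Of the gut-homing pair, Itga4 measured 315, 371 and 434 CPM (lowest, median and highest) in control ZT0, 135, 255 and 470 in control ZT12, 175, 337 and 360 in knockout ZT0 and 346, 373 and 461 in knockout ZT12. Its control change of -0.35 (SE 0.23, edgeR adjusted p = 0.441) lay within that wide spread. Itgb7 measured 214, 244 and 269 CPM in control ZT0, 182, 253 and 296 in control ZT12, 184, 235 and 274 in knockout ZT0 and 247, 302 and 328 in knockout ZT12. Its change was 0.05 (SE 0.11, adjusted p = 0.85) in control mice and 0.36 (SE 0.13, adjusted p = 0.571) in knockout mice.

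Itgb1, the common partner of collagen, laminin and fibronectin receptors, ranged over all libraries from 16.6 to 30.8 CPM, its alpha partner Itga5, of the fibronectin receptor, from 19.01 to 28.5 CPM, and Itgb5, another partner of alphav, from 15.8 to 23.8 CPM. The time of day changes of these 3 genes lay between -0.13 and 0.06 on the log2 scale in both genotypes, with SEs of 0.10 to 0.13. The myeloid subunits Itgax (CD11c) and Itgam (CD11b) reached 12.8 and 4.57 CPM, in libraries whose summed myeloid markers ran from 10.3 to 99.2 CPM. The symbol Itgam carries 2 gene identifiers in the table, and the one with more reads was used. Itga10, Itga1, Itga2 and Itga9, alpha subunits of collagen receptors and, for Itga9, of a tenascin receptor, had means of 3.74, 2.68, 1.69 and 1.32 CPM.

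Itgb4, the epithelial partner of alpha6, averaged 1.49 CPM, with changes of 1.48 (SE 0.60, edgeR adjusted p = 0.195) in control mice and 1.74 (SE 0.72, adjusted p = 0.613) in knockout mice. Its highest values, 7.70 and 4.22 CPM, came from control ZT12 replicate 5 and knockout ZT12 replicate 5, the same libraries in which Itga6 and the epithelial markers were highest. Itga3, a laminin receptor subunit, reached 9.88 and 4.57 CPM in these libraries and averaged 2.27 CPM over all. The subunits Itga7, Itga11 and Itgad passed the filter with means under 0.1 CPM, and Itga8, Itgb6 and Itgb8 had 3, 7 and 7 reads over all 21 libraries.

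**Figure D4:**
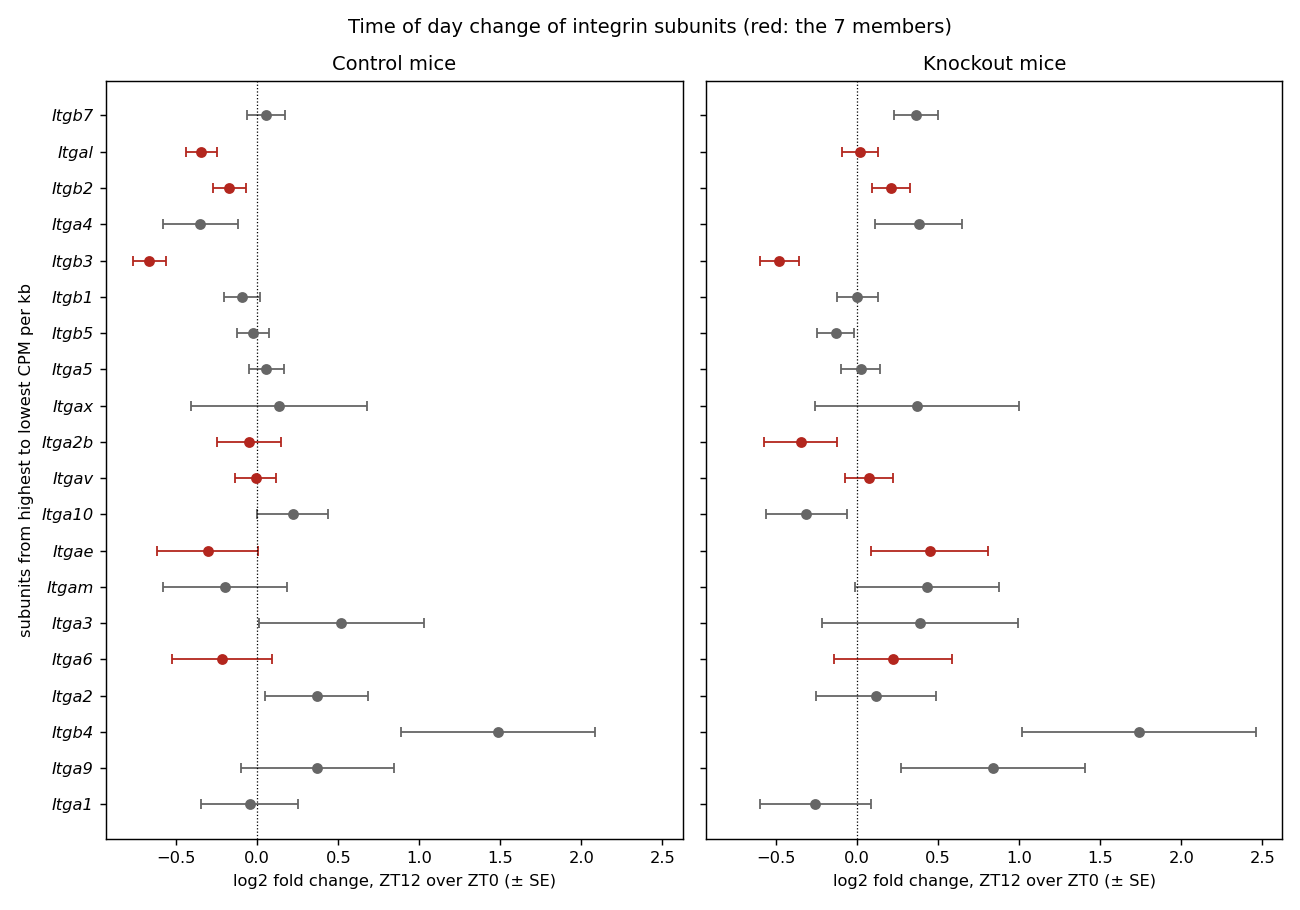
Change from ZT0 to ZT12 (log2 fold change, bars are SE) of the 20 integrin subunits with a mean of at least 1 CPM, in control mice (left, 6 against 6) and knockout mice (right, 4 against 5), ordered by level per kb, with the 7 integrin genes of the report in red. Itgb3 lies at -0.67 and -0.48, and the wide bars belong to subunits of low level such as Itgb4.

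Genes that act with integrins were counted in 3 lists. Of 19 activators and cytoskeletal linkers, 17 were tested and edgeR called none in any comparison. For time in control mice, 4 of them were higher and 3 lower at an unadjusted p under 0.05 (18.1% of all genes in either direction), and in knockout mice 3 were higher and 1 lower (8.01%). For the difference between the time changes 3 were higher and 3 lower (10.8%), and for genotype 1 was higher and 1 lower (4.19%). The highest in level were Tln1 (talin, 196 CPM), which changed by -0.17 (SE 0.14) in control and 0.30 (SE 0.16) in knockout mice, Rap1b (196 CPM), with -0.14 (SE 0.08) and -0.08 (SE 0.10), and Rap1a (140 CPM), with 0.23 (SE 0.10) and -0.19 (SE 0.11). Rap1a and Rap1b encode the small GTPases that bring talin to integrin tails.

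All 23 genes of outside-in signalling were tested and none was called. At an unadjusted p under 0.05, 2 were higher and 5 lower for time in control mice, and 0 higher and 1 lower in knockout mice, against the same 18.1% and 8.01% of all genes. For the difference between the time changes 5 were higher and 1 lower (10.8% of all genes), and for genotype 0 in either direction (4.19%). Ptk2b (the kinase Pyk2, 365 CPM) changed by -0.20 (SE 0.11) in control and 0.14 (SE 0.12) in knockout mice, Syk (252 CPM) by -0.22 (SE 0.09) and 0.08 (SE 0.11), and the adaptor gene Tns3 (148 CPM) by -0.25 (SE 0.14) and 0.10 (SE 0.16). Of 21 ligands and membrane partners, 20 were tested and none was called. There 2 were higher and 0 lower in control mice and 0 higher and 3 lower in knockout mice at that level, where 18.1% and 8.01% of all genes passed. For the difference 0 were higher and 2 lower, and for genotype 0 in either direction, where 10.8% and 4.19% of all genes passed. Cd47 (101 CPM), a membrane partner of beta3 integrins, changed by -0.02 (SE 0.08) and -0.07 (SE 0.09), the tetraspanin Cd81 (65.1 CPM) by 0.14 (SE 0.11) and -0.13 (SE 0.12), and the laminin chain Lamc1 (40.0 CPM) by -0.03 (SE 0.11) and 0.15 (SE 0.13).

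Among the marker lists, Pecam1 (CD31), which is also expressed by leukocytes, was the only gene called in any comparison. Its range was 36.0 to 42.4 CPM in control ZT0, 19.1 to 37.1 in control ZT12, 28.1 to 42.1 in knockout ZT0 and 21.9 to 38.4 in knockout ZT12. In control mice it fell, with a log2 fold change of -0.51 (SE 0.14, edgeR adjusted p = 0.0494), and its change was -0.09 (SE 0.16) in knockout mice. For time in control mice edgeR called 1.73% of all genes, and 0 of all genes with the immunoglobulin share as a covariate. The next endothelial marker, Cdh5, averaged 2.53 CPM.

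The 5 genes whose level across the 21 libraries was most like that of Itgb3 were Srebf2 (Pearson r = 0.88, Spearman rho = 0.87), Fam135a (0.86 and 0.81), Rgs9 (0.85 and 0.83), Exoc2 (0.84 and 0.88) and Mdfic (0.84 and 0.86), of 11634 genes with a mean of at least 1 CPM. After the group means were removed, the Pearson correlations were 0.49, 0.66, 0.59, 0.57 and 0.63. The points share the 4 groups and their library scaling, and the values are descriptive. Srebf2, which encodes a regulator of cholesterol synthesis genes, changed with time by -0.58 in control and -0.33 in knockout mice on the log2 scale. Against its own partners Itgb3 gave r = 0.13 with Itgav and 0.10 with Itga2b, and 0.36 and -0.23 after the group means were removed.

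**Figure D5:**
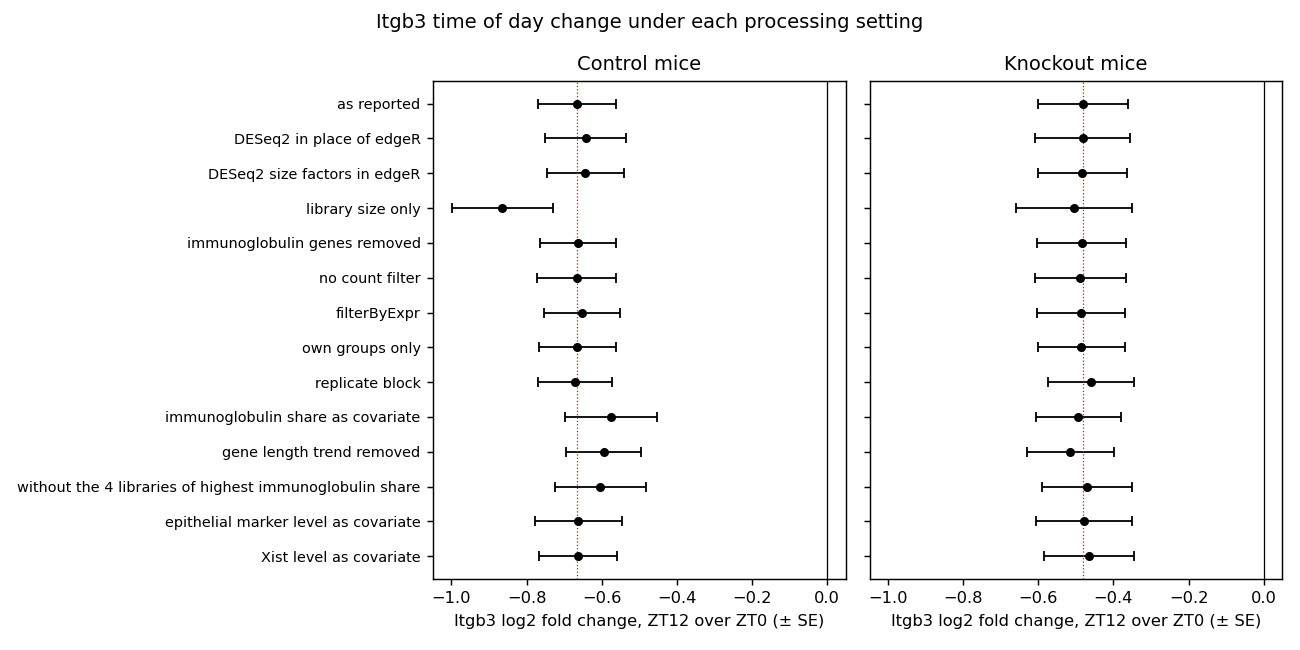
Itgb3 change from ZT0 to ZT12 (log2 fold change, bars are SE) in control mice (left) and knockout mice (right) under each processing setting, with a dotted line at the value as reported. The change runs from -0.86 to -0.58 in control mice, the former with library sizes in place of TMM, and from -0.51 to -0.46 in knockout mice.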

How the data were processed

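The authors deposited 1 table of raw read counts per gene for 21 libraries, with gene names, coordinates and a gene length in bases. No build was stated, and the coordinates equalled those of GENCODE M21 (GRCm38) for 52105 of 53706 shared genes and for 25 of the 26 integrin subunits (all but Itgb5), for which the length also equalled the merged exons. Per the labels, poly-A libraries were sequenced in paired reads of 150 bases. The aligner, the counter and its strand setting were not given in the sources used here. Genes with a total under 10 were left out. Counts were scaled by TMM and fitted in edgeR 4.0.16 (R 4.3.3) with the robust quasi-likelihood test, in 1 model of the 4 groups. The comparisons were time in control mice, time in knockout mice, their difference, and genotype averaged over times, with Benjamini-Hochberg adjustment over all 20256 genes and a threshold of 0.05. DESeq2 1.42.0, other scalings, filters and covariates and omission of each library were alternatives. The scripts were tested on simulated data. The 7 genes, the gene lists and the tests were chosen with earlier results of these data known. Named genes were the 7, every other subunit with a mean of at least 1 CPM, the genes called in each list with up to 3 more of the highest level, and the 5 genes most correlated with Itgb3 (log2 CPM, prior count 2).

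Per the labels each library came from 1 mouse. Replicates of a group differed by more than counting error in all 46 pairs. Counting error alone gave Itgb3 in its least covered library (398 reads) a 95% Wilson interval of 23.2 to 28.3 reads per 1000000 reads counted, and Itgae in its own (12 reads) 0.301 to 0.921. Such intervals cover counting error only.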

Additional observations from a re-analysis of the deposited data

Results flagged for a closer look

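Among the 20 integrin subunits with a mean of at least 1 CPM, 11 values stood farther from the other mice of their group than Dixon's test allows at the 95% level, in 80 groups tested, where chance flags about 1 in 20 groups, or 4 here. For Itga2b, knockout ZT0 replicate 3 measured 9.61 CPM against 4.66 to 4.92 in the other 3, and knockout ZT12 replicate 2 measured 3.47 CPM against 4.76 to 5.10. For Itgav, knockout ZT0 replicate 3 measured 7.34 CPM against 9.18 to 9.56. For Itgal, control ZT0 replicate 6 measured 245 CPM against 295 to 306. For Itga6, control ZT12 replicate 5 measured 6.03 CPM against 2.49 to 3.62.

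The same library, control ZT12 replicate 5, stood apart for Itga3, at 9.88 CPM against 1.28 to 1.88, and for Itgb4, at 7.70 CPM against 0.76 to 1.81, and its summed epithelial markers were 644 CPM. Control ZT0 replicate 6 stood apart for Itga3, at 4.37 CPM against 1.24 to 2.28, and for Itgax, at 12.8 CPM against 2.18 to 5.81. Its summed epithelial markers, 162 CPM against 52.4 to 73.1 CPM, were the highest of its group. So were its summed myeloid markers, but at 78.9 CPM against 39.2 to 75.2 CPM they lay close to those of replicate 4. The remaining values were Itgam in control ZT12 replicate 1, at 4.56 CPM against 0.961 to 2.25, and Itgb4 in knockout ZT0 replicate 1, at 0.275 CPM against 0.667 to 0.746. The causes were not tested, and no difference between the time changes of the genotypes passed the threshold for any of these subunits.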

How the results depend on the processing

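Itgb3 was lower at ZT12 in both genotypes under every alternative. In control mice its change ranged from -0.73 to -0.62 when each library was left out in turn, and it moved to -0.86 with library sizes in place of TMM, a scaling that shifted the median of all genes by -0.20. Calls for time in control mice numbered 350 over all genes as reported, 1 of them among the 7 integrin genes. DESeq2, library sizes and edgeR's expression filter called 1052, 446 and 460 of all genes and 2 of the 7. The immunoglobulin share as a covariate called 0 of all genes and omission of the 4 libraries above 58% called 12, with 0 of the 7 in each, and 1 to 2 of the 7 were called without single libraries. For time in knockout mice DESeq2 called 47 of all genes and 1 of the 7. These counts include Itgb3, which was chosen on this contrast. Deviations of libraries that share a replicate number correlated between -0.31 and 0.35 over 28 pairs, 7 of them over 0.1. Libraries with different numbers were not compared, so these values cannot tell whether the mice were paired. With the replicate number as a block the Itgb3 change was -0.67 in control and -0.46 in knockout mice. That setting called 183 of 20256 genes for time in control mice, and 0 of the other 6.

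Some changes turned sign, none of them called as reported, among them larger ones such as Itgae (-0.31) and Itga6 (-0.22) in control mice, Itga6 (0.22) in knockout mice and the difference for Itga2b (-0.30). The cause was not tested. With DESeq2, its size factors or the expression filter, Itgav in control mice was 0.014, 0.011 and 0.0026. With library sizes, Itgal in knockout mice was -0.018 and Itgb2 by genotype 0.022. With the replicate block, Itga6 in knockout mice was -0.041 and Itgb2 by genotype 0.021. With the immunoglobulin covariate, Itgav, Itga6 and Itgae in control mice were 0.15, 0.20 and 0.069, and the differences between time changes of Itgav and Itga2b -0.087 and 0.16. With the gene length trend removed, Itgav and Itga2b in control mice were 0.14 and 0.018, Itgal in knockout mice -0.014, the difference for Itgav -0.13 and Itgav by genotype -0.0034. Without the 4 libraries, Itgav in control mice was 0.054, Itgav, Itga6 and Itgal in knockout mice -0.0083, -0.011 and -0.076, the differences for Itgav and Itga2b -0.062 and 0.13, and Itga2b by genotype -0.051. With epithelial markers as a covariate, Itga2b in control mice was 0.063 and Itga6 in knockout mice -0.18. The settings without the 4 libraries and with epithelial markers or Xist as a covariate were chosen after seeing the data.

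Without single libraries, the control change ranged from -0.077 to 0.034 for Itgav, -0.18 to 0.028 for Itga2b and -0.44 to 0.0033 for Itgae, the knockout change from -0.016 to 0.15 for Itgav, -0.073 to 0.050 for Itgal and -0.16 to 0.43 for Itga6, the difference from -0.0065 to 0.16 for Itgav and -0.41 to 0.025 for Itga2b, and the genotype change from -0.0086 to 0.070 for Itgav, -0.11 to 0.12 for Itga2b and -0.055 to 0.021 for Itgb2. The depth of 12 to 95 reads for Itgae and 20 to 111 for Itga6 limits what could be detected for these genes.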
